A study of Mus musculus with 16 samples.

Results

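The genes described here encode neural cell adhesion molecules and their partners at synapses. They are *Ncam1*, *Ncam2*, *Nrcam*, *Chl1*, *Cadm1*, *Nrxn2*, *Nrxn3*, *Nlgn1* and *Cntnap2*, a list set by name for their function. The list was made with earlier results of these data known, so the shares below describe these genes and are no independent test of them. A differentially accessible peak was counted for a gene when a start site of that gene was the nearest protein-coding transcription start site to the peak's centre. By this rule the 9 genes, of 14580 protein-coding genes with at least 1 such peak, took 235 of 80367 peaks.

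The peaks come from ATAC-seq, in which the Tn5 transposase inserts sequencing adaptors into accessible DNA, of SCLC cells sorted from lung tumors of *TKO;Hes1* GFP/+ mice. All mice carried floxed *Rb*, *p53* and *p130*, deleted in the lungs of adults of both sexes by intratracheal Ad-CMV-Cre, and a GFP reporter at 1 *Hes1* allele, and their tumors were collected months later. The non-NE group is GFP high and the NE group GFP neg, each with 4 libraries, in 4 pairs from 3 mice. One mouse gave 2 of the pairs, since 1 pair is a technical replicate, and each of the 8 libraries was run on 2 lanes. The CMV promoter lets Cre act in any infected lung cell, the tumors of a mouse were pooled, and the GFP neg gate selects for absence of the reporter.

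Cell adhesion molecules of the immunoglobulin superfamily hold neurons, axons and glia together, and they do so mostly by binding copies of themselves or of close relatives on the next cell. Neurexins sit on the presynaptic membrane and bind neuroligins across the synaptic cleft. Pulmonary NE cells share much of this neuronal program, grow in tight clusters, and NCAM1 on their surface is a standard marker of NE lung tumors.

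In the peak lists, opened peaks are more accessible in GFP high cells and closed peaks are less accessible in GFP high than in GFP neg cells. Of the 235 peaks of the 9 genes, 199 were closed and 36 were opened. The closed share was thus 84.7% (Wilson interval 79.5% to 88.7%, counting error only), against 49.2% of all listed peaks and 61.7% of 22542 peaks of other genes at least as long as the shortest member. The excess of closed peaks was shared by 8 of the 9 genes, whereas 37.5% of all protein-coding genes with a listed peak had more closed than opened peaks. The shortest member is *Nrxn2* with 125.4 kb, and among genes of at least that length the figure was 58.6%. *Cadm1* was the exception, and without it 91.4% of the remaining 210 peaks were closed. In sorted bulk populations, fewer cells with an accessible site and lower accessibility in each cell cannot be told apart.

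**Figure D1:**
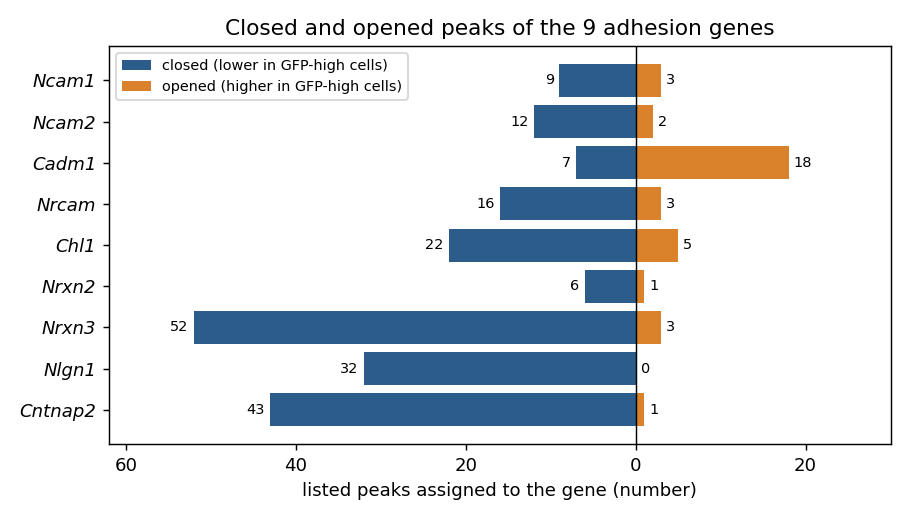
Number of listed peaks assigned to each of the 9 genes, closed peaks to the left of 0 and opened peaks to the right. *Cadm1*, with 7 closed and 18 opened peaks, is the member with more opened than closed peaks, and *Nlgn1* has 32 closed and 0 opened.

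The sorted populations were compared with marker genes of the cell types they are named after. Of 7 neuroendocrine markers, 5 had more closed than opened peaks, *Chga* had more opened, and *Syp* had none. The promoters of *Chga*, *Chgb*, *Calca*, *Uchl1*, *Insm1* and *Resp18* each held closed peaks and 0 opened peaks. The 4 non-NE and club cell markers, *Hes1*, *Scgb1a1*, *Cyp2f2* and *Scgb3a2*, all had more opened than closed peaks, with 46 opened and 14 closed peaks between them. By the study's methods, the tumor cells were stained for CD45, CD31 and TER-119, lineage markers for negative selection of leukocytes, endothelium and red cells, and for CD24. An antibody panel given there also holds NCAM1 and ICAM1, and whether it was the panel of these samples is not given in the sources used here. Markers of cells other than tumor cells were mixed. Leukocyte markers had 10 closed and 11 opened peaks, endothelial markers 35 and 13, fibroblast markers 13 and 10, neuronal markers 14 and 5, and Schwann cell and glial markers 14 and 13. Within these lists the genes differed. All 11 opened leukocyte peaks belonged to *Ptprc*, while *Laptm5* and *Coro1a* had closed peaks only. Of the endothelial closed peaks, 23 belonged to *Cdh5*. Of the opened fibroblast peaks, 7 belonged to *Col1a1*, while the other 3 genes had more closed than opened peaks. The part of such cells in the counts of the adhesion genes was not tested.

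*Ncam1* and *Ncam2* encode the neural cell adhesion molecules proper, homophilic receptors with immunoglobulin and fibronectin domains. *Ncam1* (chr9:49502136-49798925, minus strand) had 9 closed and 3 opened peaks. Its promoter peak was closed, with a mean normalised count of 37.0 over both groups, and closed peaks in intron 1, at 1.49 kb (44.5) and 1.93 kb (43.3) from the nearest start site, followed it. The listed peaks nearest the promoter were thus closed. Of the 39539 closed peaks, 71.2% had a lower count than the strongest closed peak of *Ncam1*, and the median over all was 25.8. Its 3 opened peaks lay far from the promoter. The peak at chr9:49698434-49698739 is in intron 1, 100.2 kb from the start, and those at chr9:49980279-49980773 and chr9:49989958-49990411 are intergenic, 181.6 kb and 191.3 kb upstream. The first of this upstream pair, with 49.99, had the highest mean count of all *Ncam1* peaks. Between the upstream pair and the gene stood 3 closed peaks, 74.9 kb to 86.0 kb upstream.

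*Ncam2* (chr16:81200697-81626828), the paralog known from olfactory axons, had 12 closed and 2 opened peaks. Its single start site lay under a closed peak of 725 bp, chr16:81200331-81201055, with a mean count of 270.4. Only 467 of 39539 closed peaks had a higher count. The other closed peaks were spread over 4 positions in intron 1 and 7 upstream, the farthest being chr16:80216058-80216201 at 984.6 kb from the start. The opened peaks followed on the 3′ side, at chr16:81353054-81353515 in intron 1 and at chr16:81705005-81705371 beyond the gene.

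*Nrcam* and *Chl1* belong to the L1 family, which links neighboring axons and, through ankyrins, the cortical cytoskeleton. *Nrcam* (chr12:44328885-44601964) had 16 closed peaks in an unbroken row of 192 kb, from 1.22 kb before the start into intron 3. Of these, 4 lay within 1 kb of a start site, at chr12:44328604-44328744, chr12:44328819-44329029, chr12:44329105-44329268 and chr12:44329471-44329805, with mean counts of 37.0, 79.5, 50.6 and 79.2. The strongest, chr12:44344126-44344543 with 283.0, is in intron 1, 15.4 kb from the start. The row ended before the 3′ part of the gene, where the sign changed. An opened peak of 799 bp, chr12:44580450-44581248, in intron 25 had a mean count of 265.2, and chr12:44639627-44639916 (59.5) and chr12:44641799-44642431 (154.9) opened beyond the last exon. The listed peaks of *Nrcam* were thus closed on the 5′ side and opened near and past the 3′ end.

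*Chl1* (chr6:103510586-103750211), the close homolog of L1, had 22 closed and 5 opened peaks. At its 5′ start sites lay closed peaks, chr6:103510551-103510671, chr6:103510787-103511150 and chr6:103511257-103511409, with mean counts of 27.0, 134.5 and 33.4. Another 11 closed peaks lay in intron 1 away from these. The strongest peak, chr6:103161667-103162306 with 292.7, stood 348.6 kb upstream, and the farthest, chr6:103077060-103077320, 433.4 kb upstream. Among the distal closed peaks a group of 4 opened peaks interrupted the row, from chr6:103344552-103344666 and chr6:103345223-103345574 to chr6:103353319-103353670 and chr6:103375024-103375418. The fifth opened peak, chr6:103674160-103674665, is in intron 8 and had a mean count of 93.6.

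On chromosome 6, *Chl1* stands between contactin genes, which encode further axonal immunoglobulin receptors, anchored in the membrane by a lipid. *Cntn3*, *Cntn6* and *Cntn4* had 14, 15 and 21 closed peaks, respectively, and 0 opened. Together with *Chl1* the 4 genes took 72 closed and 5 opened peaks in 4.11 Mb, and all 5 opened peaks were those of *Chl1*. Over the whole of chromosome 6, 52.6% of 4758 listed peaks were closed.

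*Cadm1* (chr9:47530173-47857637) encodes an adhesion molecule of the nectin-like group that joins epithelial cells as well as synapses. Its gene lies 1.64 Mb from that of *Ncam1* on the same chromosome, yet the signs of their peaks were opposite at the promoter. The *Cadm1* promoter peak chr9:47529905-47530767, 863 bp wide, was opened and had a mean count of 480.9. It was the only opened promoter peak among the 9 genes. From there, 13 opened peaks ran without a closed one over 178.7 kb to chr9:47708368-47708582, all but the promoter peak in intron 1. The next 4 peaks of the same intron, from chr9:47716231-47716472 to chr9:47764693-47765108, were closed, with mean counts between 15.9 and 41.6. Upstream of the gene, 5 opened and 3 closed peaks were interspersed, the strongest being the opened peak chr9:47414402-47415048 (193.2), 115.4 kb from the start. Within its gene body, *Cadm1* had 39.7 opened and 12.2 closed peaks per Mb. The medians over 1844 other genes of at least the length of *Nrxn2* were 10.6 opened and 18.9 closed peaks per Mb. Closed peaks per Mb were also below that median in *Cntnap2* (17.4), *Ncam1* (16.9) and *Ncam2* (9.39). They were above it in *Chl1* (58.4), *Nrcam* (51.3), *Nrxn2* (47.8), *Nlgn1* (32.0) and *Nrxn3* (28.5).

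**Figure D2:**
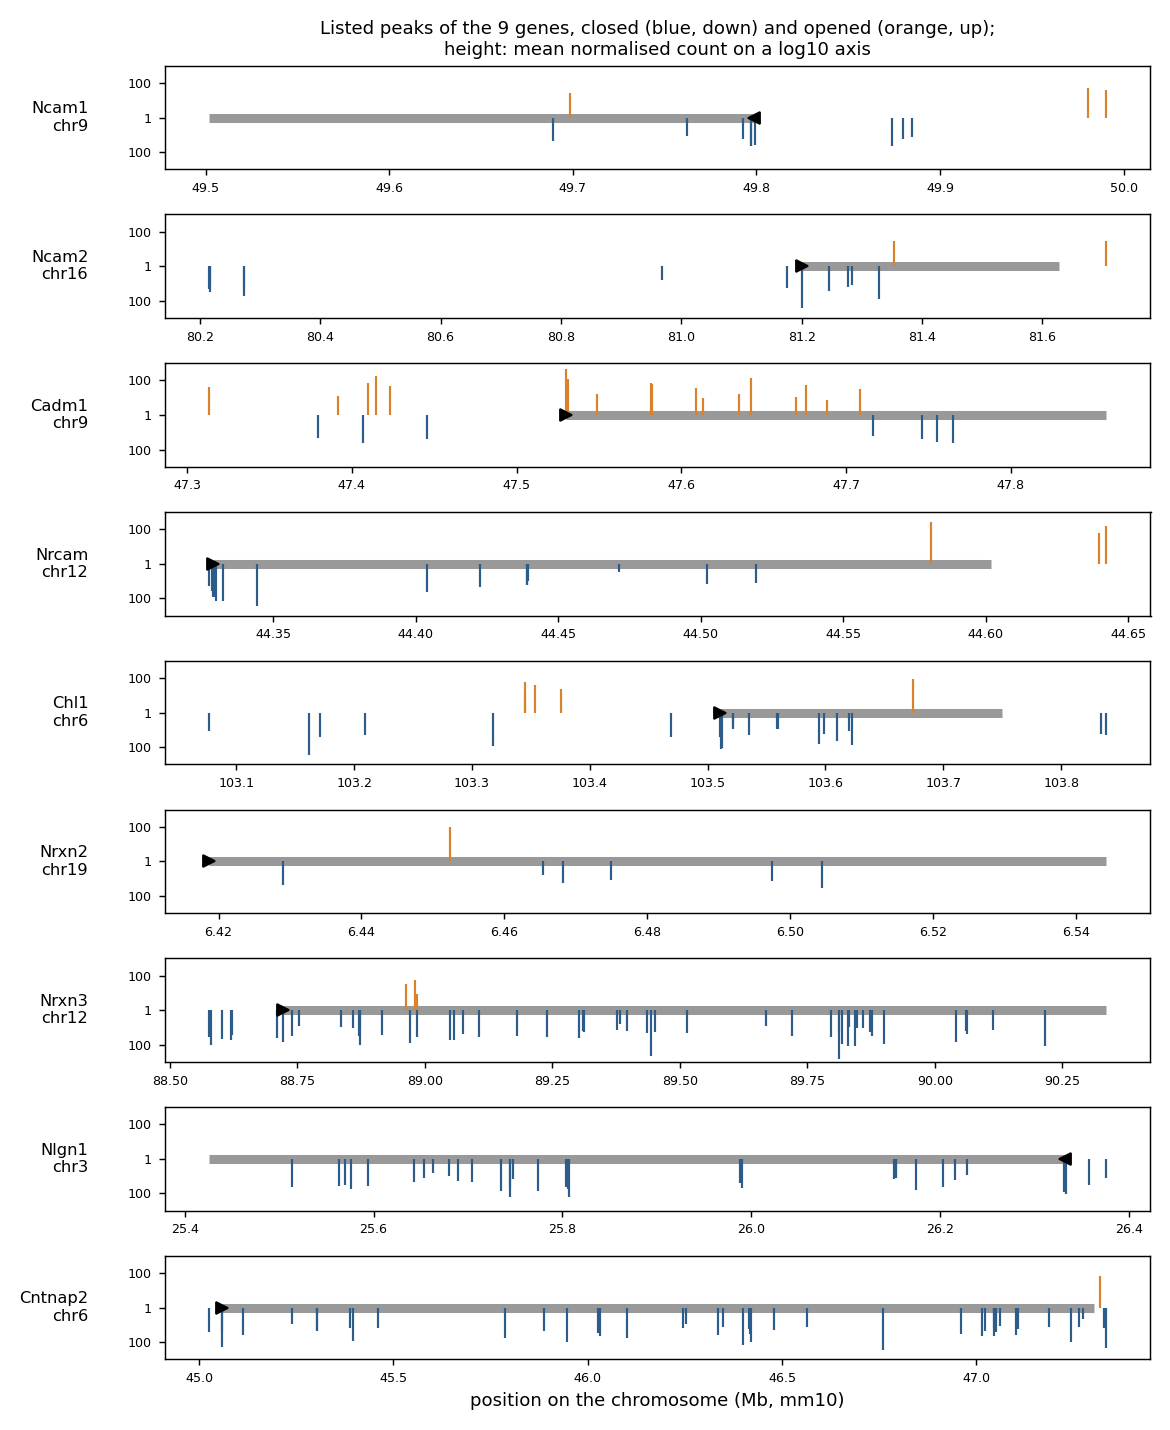
Maps of the 9 genes, with position in Mb (mm10) on the horizontal axis and gene bodies as grey bars with an arrowhead at the 5′ end. Each line is a listed peak, opened upward and closed downward, and its length is the authors' mean normalised count on a log10 axis. Of the 18 opened peaks of *Cadm1*, 13 run from the start over 178.7 kb into its intron 1, and 5 lie upstream. The opened peaks of *Nrcam* lie near and past its 3′ end.

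*Nrxn2* and *Nrxn3* encode presynaptic receptors, each in a long α form and in a short β form that begins at an internal promoter. For *Nrxn2* (chr19:6418731-6544169) 6 closed peaks and 1 opened peak were listed. None lay within 1 kb of the start sites of the long form, whereas chr19:6497426-6497516, with a mean count of 14.4, closed 0.357 kb before the internal start at position 6497828. The strongest peak of the gene was the opened one, chr19:6452190-6452518 in intron 5, with a mean count of 95.2, and the strongest closed peak was chr19:6504356-6504632 with 34.0. The peak farthest from a start site, chr19:6465359-6465469, was at 32.4 kb in intron 7. *Nrxn2* is on chromosome 19, where 39.7% of listed peaks were closed, the lowest share among the chromosomes of these genes.

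*Nrxn3* (chr12:88722876-90334935) had 52 closed and 3 opened peaks, and only 3 of 14580 genes had more closed peaks. That rank is not scaled to gene length. Its gene body of 1.612 Mb held 28.5 closed peaks per Mb, beside the median of 18.9 in the other long genes. The peak at the internal start of the β form, chr12:89811874-89812610, was the strongest of all 235, with a mean count of 657.7, and only 13 of 39539 closed peaks exceeded it. A small closed peak, chr12:89812702-89812774 (15.4), lay just past it. No listed peak was within 1 kb of the protein-coding start sites of the longer forms, although a closed peak, chr12:88722674-88723034 (74.8), spanned the annotated 5′ end of the gene. Intron 14, which holds the β promoter, had 14 closed peaks, and intron 3 had 12 closed and the 3 opened ones. The opened peaks, chr12:88963860-88964196 (31.8), chr12:88981224-88981611 (58.2) and chr12:88985072-88985184 (8.55), fell within a short stretch. They alternated there with the closed peaks chr12:88971132-88971516 (85.0) and chr12:88983893-88984312 (37.2). The widest peak, chr12:89442211-89443043 in intron 9, spanned 833 bp with a mean count of 459.7. The peak farthest from a start site was chr12:90216474-90216987 in intron 18, at 404.2 kb. Apart from intron 3, all listed peaks were thus closed from the region upstream of the gene to its last introns, and the highest counts were at the β start and in intron 9.

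*Nlgn1* (chr3:25426215-26332460, minus strand) encodes neuroligin 1, the postsynaptic ligand of neurexins at excitatory synapses. All its 32 listed peaks were closed. Its promoter peaks lay at 2 of its 3 annotated start sites: chr3:26331405-26331932 (80.4) is 0.792 kb inside the long transcript, and chr3:26153487-26153572 (11.3) and chr3:26153735-26153820 (12.9) precede the internal start at position 26153307. The widest peak, chr3:26333274-26333831 with 109.1, stood 1.09 kb before the long transcript's start. Intron 5 alone held 19 of the 32, including the strongest, chr3:25744717-25745222 with 163.2, and the farthest, chr3:25513908-25514272, 619.6 kb from a start site.

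*Cntnap2* (chr6:45059357-47304213) encodes a neurexin-related protein that clusters potassium channels along myelinated axons. With 2.245 Mb it was the longest member and had 43 closed peaks and 1 opened peak. A closed peak spanned the annotated 5′ end of the gene, chr6:45059218-45059361 (23.4). The peak of 879 bp at chr6:45059594-45060472 (187.8) covered the start site of the long protein-coding transcript, and chr6:47244178-47244503 (101.2) the internal start of short ones. The strongest, chr6:46759833-46760521 with 295.8, is in intron 14, and the farthest, chr6:46099990-46100465 in intron 8, lies 1040 kb from a start. Closed peaks occurred in 17 of the 23 introns. The single opened peak, chr6:47318713-47319162 (64.7), lay 14.7 kb past the 3′ end of the gene, and closed peaks followed it, among them chr6:47332846-47333388 with 224.5.

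Promoters were counted apart from more distant peaks. Within 1 kb of a member's own start site, 18 peaks were closed and 1 was opened. Of all 10357 listed peaks that close to a protein-coding start, 25.7% were closed. By gene, 8 of the 9 members had closed promoter peaks only, and *Cadm1* had an opened one only. Over all genes, 7503 had a listed promoter peak and 22.5% of them had closed ones only. Farther out, 83.8% of 216 member peaks were closed, against 52.7% of 70010 listed peaks over 1 kb from a start site. Against other genes at least as long as *Nrxn2* the contrast was smaller. In those genes 58.2% of 1573 listed peaks within 1 kb of a start site and 62% of 20969 farther out were closed, and 51.7% of the 909 genes with a listed promoter peak had closed ones only. The 18 of 19 closed promoter peaks of the members are 94.7%, with a Wilson interval of 75.4% to 99.1%. Peaks over 1 kb from a start site were not matched for distance. Of the members' 235 peaks, 127 lay over 100 kb away, as did 28.9% of all closed and 13.5% of all opened peaks. Within 100 kb, 88% of 108 member peaks and 44.3% of 63435 listed peaks were closed.

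The median of the mean count was 25.5 for the closed peaks of the members and 25.8 for all closed peaks, and the median width was 251 bp and 248 bp. For opened peaks, the median counts were 46.0 and 40.7, and the median widths 352.5 bp and 300 bp. The peaks of both lists lay farther from start sites than those of other genes. The closed peaks of the members had a median distance of 110.3 kb from the start site, all closed peaks 42.4 kb, and those of other genes at least as long as *Nrxn2* 69.2 kb. For opened peaks the medians were 117.9 kb, 17.5 kb and 43.5 kb. Of position classes, 69.8% of the members' closed peaks were intronic, compared with 51.5% of all closed peaks and 67.1% of those of the long genes.

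For 4 members, the sequence of a promoter peak is shown where it precedes the first transcribed base, since the sign of the peak there separated *Cadm1* from the others. Each is given on the strand of the gene, from the GRCm38.p6 genome, with CG dinucleotides in capitals. *Ncam2* is chr16:81200447-81200696, *Nrcam* chr12:44328604-44328744, *Nrxn3* chr12:89812233-89812482 before the β start, and *Cadm1* chr9:47529923-47530172.
Ncam2, closed: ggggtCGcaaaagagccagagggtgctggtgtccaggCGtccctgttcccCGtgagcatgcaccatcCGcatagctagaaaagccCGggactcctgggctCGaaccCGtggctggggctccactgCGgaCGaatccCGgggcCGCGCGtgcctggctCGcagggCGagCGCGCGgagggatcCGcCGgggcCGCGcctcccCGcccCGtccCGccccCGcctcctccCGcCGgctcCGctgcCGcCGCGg
Nrcam, closed: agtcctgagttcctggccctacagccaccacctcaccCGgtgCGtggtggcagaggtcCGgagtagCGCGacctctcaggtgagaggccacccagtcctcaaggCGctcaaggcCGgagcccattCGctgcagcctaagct
Nrxn3, closed: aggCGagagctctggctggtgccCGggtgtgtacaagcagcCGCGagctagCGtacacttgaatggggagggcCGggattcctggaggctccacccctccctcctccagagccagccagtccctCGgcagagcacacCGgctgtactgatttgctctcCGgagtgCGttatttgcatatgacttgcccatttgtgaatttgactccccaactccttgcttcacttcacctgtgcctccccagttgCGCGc
Cadm1, opened: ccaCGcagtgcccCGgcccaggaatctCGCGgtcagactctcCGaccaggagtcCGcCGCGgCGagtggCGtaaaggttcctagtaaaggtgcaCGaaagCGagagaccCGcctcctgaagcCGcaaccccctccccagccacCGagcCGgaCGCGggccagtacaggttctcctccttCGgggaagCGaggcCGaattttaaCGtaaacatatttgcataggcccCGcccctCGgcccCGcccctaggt
The observed to expected ratio of CG dinucleotides was 0.97 in the *Cadm1* stretch and 0.909 in that of *Ncam2*, 0.538 in that of *Nrxn3* and 0.537 in that of *Nrcam*. Among these 4 chosen stretches, the opened promoter had the highest ratio, and the closed promoter of *Ncam2* came next to it. The *Nrcam* stretch is 141 bp long and the others 250 bp, and promoters of the remaining members were not compared. A link of the ratio to the sign of the peak was not tested. The GC content ran from 60% in *Nrxn3* to 75.2% in *Ncam2*.

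REST is a repressor that silences neuronal genes outside the nervous system by binding a long composite motif. Its consensus of 20 letters was searched on both strands with at most 3 mismatches. It occurred in 1 of the 199 closed and 0 of the 36 opened peaks of the members, compared with 0.0733% of all closed and 0.154% of all opened peaks. The match, with 2 mismatches, was in the *Nrxn3* peak chr12:88709357-88709566, 13.4 kb before the annotated 5′ end of the gene. With at most 4 mismatches, which 0.21% of all closed and 0.272% of all opened peaks met, a match was also found in the *Cntnap2* promoter peak, shown here up to the first annotated base (chr6:45059218-45059356). Both are on the plus strand, which is the strand of the genes, with the matched letters in capitals, and the *Cntnap2* match reads as the reverse complement.
Nrxn3, upstream closed peak: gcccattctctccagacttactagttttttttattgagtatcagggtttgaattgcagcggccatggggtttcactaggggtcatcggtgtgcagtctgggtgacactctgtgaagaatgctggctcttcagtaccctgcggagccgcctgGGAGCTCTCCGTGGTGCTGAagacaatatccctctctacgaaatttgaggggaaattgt
Cntnap2, closed promoter peak: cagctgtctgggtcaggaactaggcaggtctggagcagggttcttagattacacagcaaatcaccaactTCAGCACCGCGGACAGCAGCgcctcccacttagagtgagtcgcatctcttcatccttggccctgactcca
These peaks had mean counts of 38.8 and 23.4. A match is a description of the letters and was not tested as a binding site.

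The letters of 6 further families were searched on both strands without mismatches. TEAD factors, the DNA-binding partners of YAP, were searched as CATTCC, AP-1 as TGANTCA, forkhead factors as TGTTTAC, NKX2 as CACTTGA or CACTCAA, RFX as GTTGCCATG, and NFI as its paired half-sites TGGC and GCCA with 5 bases between. In closed member peaks the TEAD letters occurred in 18.1% (13.4% to 24%) and in 12% of all closed peaks. The AP-1 letters occurred in 23.6% (18.3% to 30%), against 29.9% of all closed peaks. The FOX letters were found in 11.6% and 11.4%, and the NKX2 letters in 9.05% and 10.5%. RFX letters occurred in 1 closed member peak (0.503%, against 0.936%) and NFI letters in 2 (1.01%, against 1.74%). Of the 6 families in closed peaks, TEAD alone had an interval that left out the share of the whole list. This held for whole peaks only. In the central 200 bp the TEAD letters occurred in 10.1% (6.6% to 15%) and in 7.76% of all closed peaks. The AP-1 letters occurred there in 19.1% (14.2% to 25.1%) against 25.4%, so the family set apart changed with the window. The intervals show counting error only and treat peaks of 1 gene as independent. Neither difference was tested.

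The 36 opened peaks were too few for narrow intervals. TEAD letters occurred in 12 of them, 33.3% (20.2% to 49.7%), compared with 25.4% of all opened peaks, which had a smaller median width. AP-1 letters occurred in 6 and NKX2 letters in 6 (16.7% each), against 15.1% and 14.5%. FOX letters occurred in 9, 25% (13.8% to 41.1%), compared with 9.50%, and NFI letters in 4, 11.1% (4.41% to 25.3%), compared with 2.25%. In the central 200 bp of opened peaks, the FOX letters occurred in 5, 13.9% (6.08% to 28.7%), an interval that holds the 6.47% of all opened peaks. The NFI letters occurred there in 2, 5.56% (1.54% to 18.1%), compared with 1.42%. RFX letters occurred in 0 of 36, compared with 0.634%. Of the 4 NFI peaks, 3 belonged to *Cadm1* and 1 to *Chl1*. All 3 opened peaks of *Nrcam* held both TEAD and FOX letters, a combination found in 5 of the 36 opened member peaks and in 2.97% of all opened peaks. In the central 200 bp, 1 of the 3 *Nrcam* peaks, 2 of the 36 opened member peaks and 1.26% of all opened peaks held both.

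**Figure D3:**
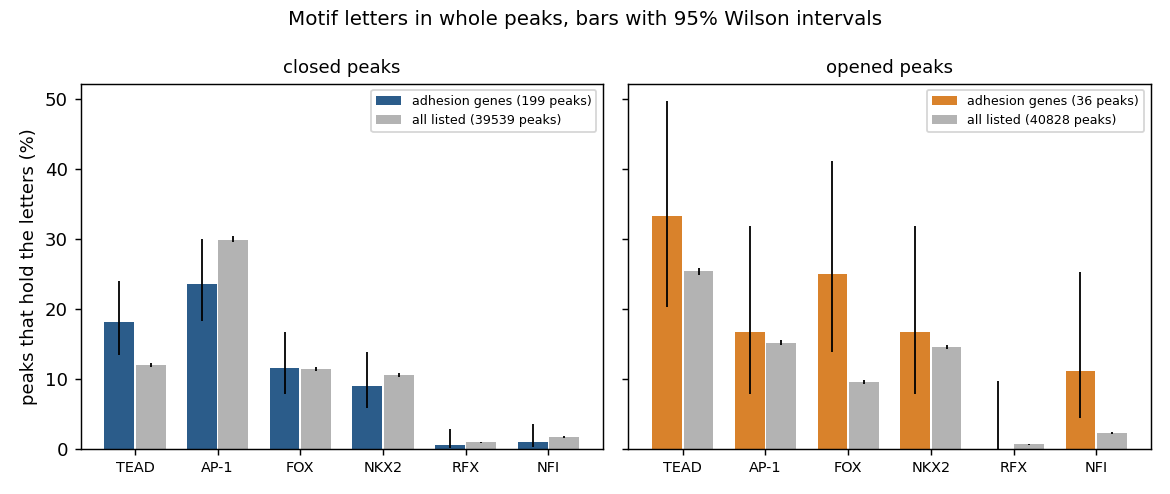
Share of peaks (%) that hold the letters of each of 6 motif families, in closed peaks (left) and opened peaks (right). Colored bars are the peaks of the 9 adhesion genes, grey bars all listed peaks, and lines the 95% Wilson intervals; the interval of FOX in opened peaks, 13.8% to 41.1%, rests on 9 of 36 whole peaks, and in the central 200 bp, not drawn, 5 of 36 held the letters.

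Sequences with matches of several families close together, or with an overlapping pair, are shown on the strand of the gene with the matched letters in capitals. The opened *Cadm1* stretch is chr9:47414704-47414905, with NKX2 and NFI letters, and the opened *Nrcam* peak chr12:44639627-44639916 holds TEAD, FOX and NKX2 letters. The closed *Nrxn3* stretch chr12:89049351-89049524, in intron 3, holds TEAD, NFI and NKX2 letters. In the *Nlgn1* stretch chr3:25807699-25807792, in intron 5, the RFX letters and their reverse complement overlap in a palindrome.
Cadm1, opened upstream peak: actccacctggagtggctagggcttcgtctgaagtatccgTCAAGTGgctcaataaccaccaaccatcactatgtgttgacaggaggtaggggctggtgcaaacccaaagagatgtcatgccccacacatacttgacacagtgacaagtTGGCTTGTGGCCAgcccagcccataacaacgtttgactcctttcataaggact
Nrcam, opened downstream peak: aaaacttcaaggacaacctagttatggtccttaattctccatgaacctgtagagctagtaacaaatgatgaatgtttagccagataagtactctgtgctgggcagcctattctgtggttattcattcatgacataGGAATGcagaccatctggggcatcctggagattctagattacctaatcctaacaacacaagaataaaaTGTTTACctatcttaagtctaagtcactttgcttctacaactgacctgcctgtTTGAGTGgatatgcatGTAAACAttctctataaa
Nrxn3, closed intronic peak: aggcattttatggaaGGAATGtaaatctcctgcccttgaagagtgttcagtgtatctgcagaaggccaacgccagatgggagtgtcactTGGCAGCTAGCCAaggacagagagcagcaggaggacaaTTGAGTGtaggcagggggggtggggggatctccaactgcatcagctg
Nlgn1, closed intronic peak: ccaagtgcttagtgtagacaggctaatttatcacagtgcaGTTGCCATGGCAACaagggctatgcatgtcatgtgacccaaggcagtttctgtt
Letters of both NKX2 and NFI thus occur in an opened peak of *Cadm1* and in a closed peak of *Nrxn3*.

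Further neural adhesion genes were counted from a list of 55 related genes, among them neuroligins, contactins, latrophilins, teneurins, SLITRK and LRRTM proteins and receptor phosphatases. Like the members, this list was chosen with earlier results of these data known. Of these, 54 had a listed peak, 42 had more closed than opened peaks, 11 had more opened and 1 had equal numbers. Between them they took 806 closed and 172 opened peaks, a closed share of 82.4%, to be read beside the 49.2% of all listed peaks and the 61.7% of the long genes. A listed promoter peak was found in 31 of the genes, in 25 of them closed ones only and in 6 opened ones only, beside the 22.5% of all genes with a promoter peak and the 51.7% of long ones that had closed ones only.

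The 11 related genes with more opened than closed peaks encode proteins of several families. *Icam1*, a leukocyte adhesion receptor of epithelium and endothelium, had 0 closed and 7 opened peaks, and *Mcam*, first known from melanoma, had 0 and 6. The receptor phosphatase gene *Ptprf* had 2 closed and 10 opened peaks, its relative *Ptprs* 2 and 5, *Clstn1* 0 and 5, and *Alcam* 12 and 15. *Kirrel3*, with 21 closed and 24 opened, had the most opened peaks of the 11. *Adgrl1* and *Slitrk2* each had 1 closed and 2 opened peaks, and *Cntnap5c*, a relative of *Cntnap2*, had 0 and 2. Among the close relatives of *Cadm1*, *Cadm2* had 28 closed and 6 opened, *Cadm3* 8 and 3, and *Cadm4* 3 and 0. *Cadm1* was the only gene of its family with more opened than closed peaks. *Nlgn2*, the last of the 11 and known from inhibitory synapses, had 1 opened peak, at its promoter, whereas *Nlgn1* had closed peaks only.

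The genes with a pattern most like that of the members were taken as those with the most closed peaks among other protein-coding genes with at least 90% of their listed peaks closed. They included *Celf4* (76 closed, 5 opened), *Lsamp* (51 and 0), *Ryr2* (45 and 0), *Khdrbs3* (44 and 1), *Tenm2* (44 and 2), *Brinp1* (43 and 1), *Lingo2* (43 and 0), *Opcml* (43 and 3) and *Cdh2* (42 and 2). *Lsamp*, *Tenm2*, *Opcml* and *Cdh2* also stand in the list of related adhesion genes. *Nrxn3* and *Cntnap2*, with 52 and 43 closed peaks, fall within the same range.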

How the data were processed

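The authors aligned the reads of 16 runs to mm10 (Bowtie2 2.3.4.1), removed duplicates, called narrow peaks (MACS2), merged them over samples and compared the groups with DESeq2 1.28.1. The deposited signal of a peak is the authors' mean normalised count, with no SD or n; the depth per library is unknown, and whether lanes and the 2 pairs of 1 mouse were summed or entered apart, as replicates, is not given in the sources used here. The lists also hold the authors' fold changes, standard errors, test statistics, p and adjusted p, not used here. Unlisted peaks were not analysed here. Peaks were assigned by their centre to GENCODE basic protein-coding start sites and read from GRCm38.p6. Introns are those of the longest protein-coding transcript. Assignment and motif search were checked on simulated data. No test was run, since peaks are not replicates; 95% Wilson intervals show counting error only. Python 3.11.15, numpy 2.4.6, pandas 2.3.3, scipy 1.17.1 and matplotlib 3.10.9 were used. By rule, each member's promoter, strongest, widest and farthest peaks are named, all opened peaks where a member has at most 5, and REST matches; further peaks, and the sequences shown, were chosen after their values were seen. Members and lists were chosen with earlier results of these data known.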

Additional observations from a re-analysis of the deposited data

How the results depend on the processing

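The number of members with more closed than opened peaks was 8 under 5 of the 6 other ways of counting and 7 when only peaks with a mean count at or above the median of 31.5 were kept, where *Nrxn2* had 1 closed and 1 opened peak. *Cadm1* had more opened peaks under all 6. The total was 86 when start sites of all gene types competed, 108 within 100 kb of a start site, and 114 at or above the median count, because each of these leaves fewer peaks to the 9 genes. The closed share ran from 80.6% to 88% under the other 5 and was 78.9% at or above the median count, where 41.1% of all listed peaks were closed. Without *Cadm1*, an alternative chosen after seeing the data, it was 91.4%. Within 3 kb of a start site, the members had 26 closed and 2 opened promoter peaks (92.9% closed, all listed 29.4%). In the central 200 bp of closed peaks, TEAD letters were in 10.1% (all closed peaks 7.76%, inside the interval of 6.6% to 15%), RFX letters in 0, and AP-1 letters in 19.1% (14.2% to 25.1%, all 25.4%); in opened peaks FOX letters were in 13.9% (6.08% to 28.7%, all 6.47%) and NFI letters in 5.56% (1.54% to 18.1%, all 1.42%); the cause was not tested. With at most 4 mismatches, 2 closed peaks held the REST motif (1.01%, all closed 0.21%). No paired analysis was possible because the lists hold no value per library and no result comes from a test; leaving out a library was not run for the same reason. Stricter limits were not run because they need the authors' fold changes and p-values, which the lists hold but which were left unused by choice.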
